A study of Homo sapiens with 36 samples.

Results

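The cytosolic ribosome is built from a large and a small subunit, and its protein part is encoded by the genes named RPL (large subunit) and RPS (small subunit). The genes described here were taken by symbol: RPL or RPS followed by a number, with an optional A, L, X or Y at the end, together with RPLP0, RPLP1, RPLP2 and RPSA. The RPS6K kinases and the mitochondrial ribosomal proteins were left out. The array annotation held 72 such genes, on 76 probes, and 70 of them were among the 15308 genes tested, 44 of the large and 26 of the small subunit. RPL3L and RPL10L, paralogs known from muscle and testis, did not pass the filter on dim probes.

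The cells were NB4, an established human line of acute promyelocytic leukaemia, which has the PML-RARA fusion protein and matures toward granulocytes under all-trans retinoic acid (ATRA). Cultures received both ATRA and atorvastatin (called the combination), ATRA alone, atorvastatin alone or neither agent (control), for 8, 24 or 48 h. ATRA was given 1 h ahead of the statin, and doses and the control's vehicle are not given in the sources used here. Total RNA of each culture was hybridized to an Illumina Sentrix Human-6 BeadChip, 3 arrays in each of 12 groups, 1 from each of 3 independent experiments on different days, 36 arrays in all. Every culture was of the same line and the same serum-containing medium, so the replicates show the spread between experiments with this 1 line and not between patients. The study asked whether a statin changes the gene expression that goes with retinoid-induced maturation, and atorvastatin blocks the enzyme that makes mevalonate.

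Ribosomal proteins are made in near-equal numbers and enter nascent subunits in the nucleolus together with ribosomal RNA. Their mRNAs are among the most abundant of growing cells, and most begin with a C followed by a run of C and T, the terminal oligopyrimidine (TOP) motif, through which mTOR signalling sets how much of the mRNA is translated. MYC is known to raise the production of ribosomal RNA, assembly factors and ribosomal proteins. Several ribosomal proteins have roles outside the ribosome: RPL5 and RPL11, for example, bind MDM2 and thereby raise p53. Loss of 1 copy of many ribosomal protein genes, RPL5 among them, causes Diamond-Blackfan anaemia.

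The annotated starts of 9 members are shown because the TOP motif is the feature that most of these genes share at the sequence level. Each line gives 20 bases before the start annotated in RefSeq and the 20 bases from it (build GRCh38.p14), and the capitals mark the longest run of C or T that touches the 10 bases on either side of the start. RPS15, RPL13, RPL10A and RPL14 were lower in combination-treated cells, RPL31 was higher, RPL41 and RPL4 are core members with bright probes, RPS6 failed on 1 array and RPS27L is a paralog.
RPS15, chr19:1438376-1438415, plus strand: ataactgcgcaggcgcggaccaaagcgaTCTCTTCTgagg
RPL13, chr16:89560662-89560701, plus strand: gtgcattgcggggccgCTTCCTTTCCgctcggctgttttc
RPL10A, chr6:35468381-35468420, plus strand: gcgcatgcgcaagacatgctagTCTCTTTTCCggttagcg
RPL14, chr3:40457319-40457358, plus strand: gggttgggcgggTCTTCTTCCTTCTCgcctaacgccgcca
RPL31, chr2:101002269-101002308, plus strand: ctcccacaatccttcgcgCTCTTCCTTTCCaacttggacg
RPL41, chr12:56116613-56116652, plus strand: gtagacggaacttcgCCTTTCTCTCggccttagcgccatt
RPL4, chr15:66504836-66504875, minus strand: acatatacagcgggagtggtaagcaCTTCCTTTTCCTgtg
RPS6, chr9:19380217-19380256, minus strand: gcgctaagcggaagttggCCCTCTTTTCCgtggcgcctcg
RPS27L, chr15:63157458-63157497, minus strand: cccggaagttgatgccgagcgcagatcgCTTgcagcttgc

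Of the 70 genes tested, 59 had an entry in the RefSeq promoter table, which spans 250 bases before to 50 after each start. A gene with several annotated starts counted for a motif if any of them matched, and its longest run was taken over all of them. RPL13 has 3 annotated starts, and the one shown was picked because it has the TOP motif. A start of C followed by at least 4 bases of C or T was found in 43 of the 59 (72.9%), against 6.67% of 12450 tested genes and 5.14% of 27305 genes in the table. The longest C or T run at the start had a median length of 12 bases in the ribosomal protein genes and 5 in all tested genes. RPS15, RPL10A, RPL4 and RPS27L did not begin with the motif at the annotated base, although RPL10A and RPL4 have runs of 10 and 12 bases that begin at bases 3 and 6. The letters CTTTC, searched on the sense strand from 10 bases before to 20 after the start and often part of the same run, were present in 54.2% of the ribosomal protein genes and 5.93% of tested genes. On both strands of the whole window, CCGGAAG, the core that ETS-family factors read, was present in 37.3% against 17.9%, AAGATGGC, a core read by YY1, in 10.2% against 5.16%, and the TATA-box letters TATAAA in 6.78% against 11.7%. These are matches of letters, and no binding was measured.

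On the arrays the members were bright. After normalization the 50th percentile of all 47293 probes was 6.34 on the log2 scale, the 90th was 8.59, the 99th was 12 and the highest value was 15.22. The mean over the 36 arrays lay above the 99th percentile for 56 of the 70 genes, and 25 to 37 (median 34) of the 100 brightest probes of an array belonged to them. RPL41, the smallest ribosomal protein, was the brightest probe of all on 30 arrays, the second on 5 and the third on 1. Its deposited signal ran from 23893.9 to 48853.9, but because quantile normalization gives each rank the same value on every array, its normalized signal stood at 15.22 on those 30 arrays and no lower than 14.98 on the others. RPL4, which lines the exit tunnel, and RPS2, at the mRNA entry, averaged 14.58 and 14.65 over all arrays with SDs of 0.11 and 0.16. For probes this bright the ranks hold few distinct values and small changes are compressed. Probes differ in their own efficiency, so the order of these signals is not an order of mRNA amounts.

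At the dim end, RPL10 averaged 6.15, below the 50th percentile, and RPL28, RPL39L and RPL34 averaged 7.48, 8.30 and 8.82. RPL10 is a core protein of the large subunit needed for its last maturation step, so the level of its probe goes against what is known of the gene in growing cells. RPL3L lay between 5.72 and 6.28 and RPL10L between 5.82 and 6.11 on the 48 h arrays, at the level of background. RefSeq names 1786 pseudogenes after 68 of the 72 members (median 15.5 for each gene, at most 137, for RPL21), and a probe may also read transcripts of those copies. The members RPL13, RPL34, RPL36 and RPL8 have a pair of probes each, and the brighter one was used.

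The arrays differed in ways that bear on the members. Raw array medians ran from 78.5 to 185.4, and in experiment 1 the range was 101.8 to 118.2 on the 6 arrays with ATRA and 152.2 to 185.4 on the 6 without it. At 24 h in experiment 1, 2 libraries went against their labels: NCF1, an NADPH oxidase subunit that ATRA raises, read 7.88 in the library labelled ATRA (13.81 and 13.95 in the other ATRA experiments) and 13.66 in the library labelled atorvastatin (7.49 and 7.37 in the others). Both were kept as labelled. Without them 20 of the 22 comparisons kept their count of members called, and 1 more member was called in the other 2, the combination against atorvastatin at 48 h and 48 h against 8 h in combination cells. MPO, CTSG, AZU1 and PRTN3, granule genes of promyelocytes, were bright on all arrays (lowest value 9.26, for CTSG), whereas ELANE, another of them, was near background (median 6.58). MS4A1, HBB, ALAS2 and KRT19, markers of lymphoid, erythroid and epithelial cells, reached at most 6.76, while EPCAM reached 8.84 and CD79A 9.45. At 48 h, 3 of 5 measured promyelocyte genes (MPO, CTSG and AZU1) were lower in the combination and 2 (MPO and CTSG) in ATRA. The log2 of their summed signal was 13.94 to 14.53 in combination cells, 14.70 to 15.03 in ATRA cells, 14.87 to 15.37 in atorvastatin cells and 15.77 to 15.95 in control cells. Of the 2 lymphoid genes CD79A was higher by 2.36 ± 0.40 in the combination and 2.22 ± 0.40 in ATRA, and MS4A1 stayed near background. The summed lymphoid signal was 9.18 to 9.34 in combination cells, 8.96 to 9.48 in ATRA cells, 7.51 to 7.68 in atorvastatin cells and 7.30 to 7.73 in control cells. The part of these shifts in the changes of the ribosomal protein genes was not tested.

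After quantile normalization the ribosomal protein genes varied about as much as other genes. The median SD of a member over the 36 arrays was 0.19, against 0.20 for all genes tested, and 59 of the 70 members never differed from the control of the same time by 0.5 or more in any treated group, as 12092 of 15308 genes did not. In the authors' log2 values another measure was used. There, 66 of the 70 (94.3%) had an interquartile range of at least 0.2 over the arrays, against 56.8% of all genes. This range was not computed after quantile normalization, so it cannot be set against the SDs above. Only 1 member passed a difference of 1, RPS6, through a single array described further on. Changes below are log2 differences ± SE from a limma fit of the 12 group means to all 36 arrays, with 3 arrays in each group, and adjusted p is Benjamini-Hochberg adjusted over all 15308 genes, with 0.05 as the threshold. The map of changes for all 70 genes shows where they stood out.

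**Figure D1:**
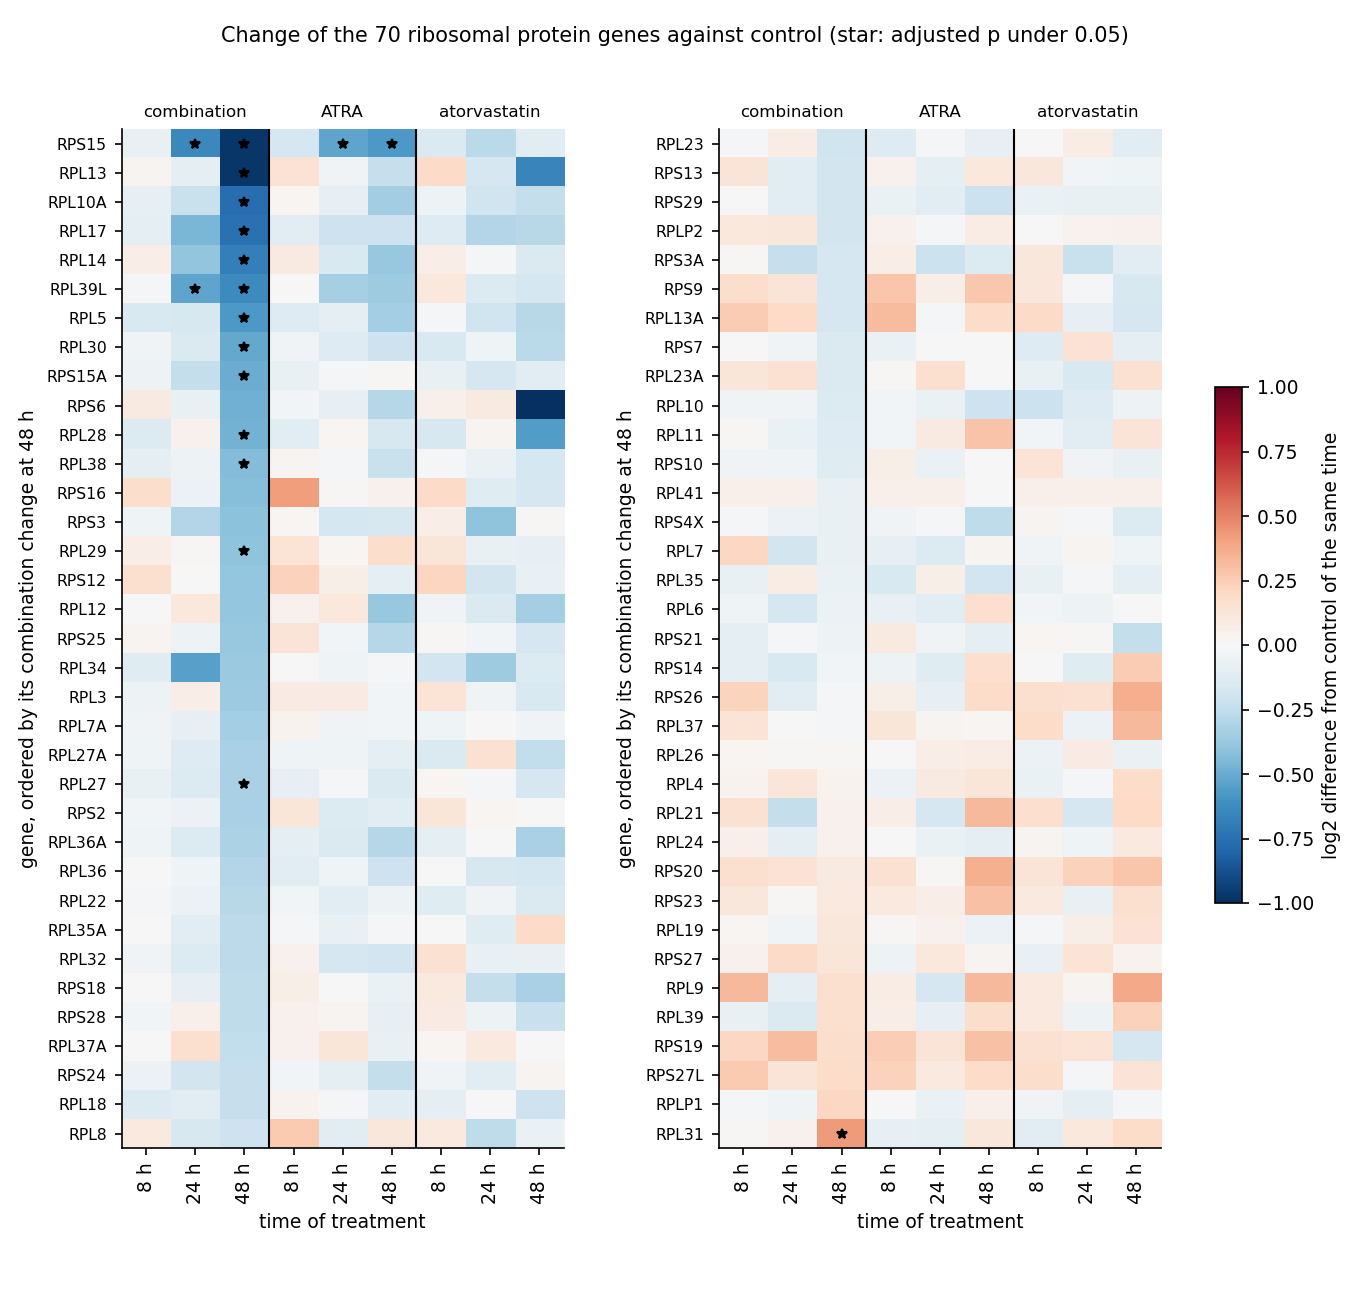
Each cell is the log2 difference of 1 of the 70 genes between a treated group and the control of the same time (columns, 8, 24 and 48 h within combination, ATRA and atorvastatin), quantile normalized, with stars where the adjusted p is under 0.05. Colours end at 1 and -1, which clips RPS6 in atorvastatin at 48 h (-2.92), and the combination at 48 h is the column with most stars, 14 of 70 (2 of 70, both higher, with median scaling).

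After 48 h of the combination, 13 of the 70 genes were lower than in control cells and 1 was higher. This is 20.0% of the members, beside 20.4% of all genes tested (10.7% lower and 9.67% higher), so the share called was near the background. The direction was less even: 56 of the 70 changes lay below 0, and their median was -0.20, against -0.01 over all genes, although it was 0.05 when arrays were scaled to a common median. All 3 combination arrays lay below all 3 control arrays for 18 members, against 15.6% of all genes, and above them for 2, against 14.3%. With median scaling these counts turned to 1 below and 5 above, where 6.33% of all genes lay below and 21.7% above. In RNA from whole cultures, fewer cells of a type and less RNA per cell cannot be told apart, and since every array began from the same mass of total RNA, a value is relative to the rest of the transcriptome.

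RPS15, a small-subunit protein of the head whose tail reaches the decoding centre, had the lowest p of the family. At 48 h its signal was 10.15, 10.24 and 10.14 in combination cells and 10.33, 10.69 and 10.68 in ATRA cells, against 11.21, 11 and 10.92 in atorvastatin cells and 10.85, 11.16 and 11.43 in control cells. The 3 combination values lay below every other 48 h value, and the 3 ATRA values lay below all those without ATRA. The change was -0.97 ± 0.12 in the combination (adjusted p = 1.95e-07), -0.58 ± 0.12 in ATRA (adjusted p = 0.0014) and -0.10 ± 0.12 in atorvastatin, which did not pass. At 24 h it had been 10.80, 10.77 and 10.84 in combination cells and 10.96, 10.82 and 10.99 in ATRA cells, against 11.13, 11.19 and 11.22 in atorvastatin cells and 11.50, 11.35 and 11.49 in control cells. Both arms with ATRA were again apart from both arms without it. Of these values, 10.96 in ATRA and 11.13 in atorvastatin came from the 2 libraries with doubtful labels. The fall at 24 h was -0.64 ± 0.12 in the combination (adjusted p = 5.81e-04) and -0.52 ± 0.12 in ATRA (adjusted p = 0.0355). With only the 24 h arrays no member passed in ATRA, and leaving out each experiment left 0 to 1. At 8 h the 12 values lay between 11.07 and 11.39 and no comparison passed.

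RPL13, a large-subunit protein, and RPL10A, which forms the mobile L1 stalk where spent tRNA leaves the ribosome, had the next largest falls. RPL13 was 10.88, 11.03 and 11.18 in combination cells at 48 h, against 11.78, 12.32 and 11.89 in control cells. ATRA cells, at 11.46, 11.88 and 11.97, overlapped control cells. Atorvastatin cells, at 10.84, 11.43 and 11.75, lay below all control cells and spread the most, with the value of experiment 1 below every combination value. That value came from the array on which RPS6 read near background, described further on. The combination change was -0.97 ± 0.22 (adjusted p = 0.00137), and without experiment 2 it was -0.81 with an adjusted p of 0.0747. RPL10A was 12.73, 13.09 and 13.01 in combination cells and 13.64, 13.79 and 13.68 in control cells, with no overlap and a change of -0.76 ± 0.14 (adjusted p = 1.27e-04).

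RPL17, whose loop lines the exit tunnel, and RPL14, a surface protein of the large subunit, followed. RPL17 was 10.00, 10.36 and 10.16 in combination cells and 10.50, 11.18 and 11.08 in control cells, a change of -0.74 ± 0.18 (adjusted p = 0.00174). RPL14 was 9.45, 9.52 and 9.30 in combination cells and 9.94, 10.20 and 10.19 in control cells, a change of -0.69 ± 0.14 (adjusted p = 3.57e-04). Neither gene overlapped between those groups. RPL39L, a paralog of the tunnel protein RPL39 that is best known from the testis, was dimmer, at 8.01, 8.20 and 7.73 in combination cells and 8.66, 8.85 and 8.33 in control cells, and fell by 0.63 ± 0.16 (adjusted p = 0.00308). RPL5, which carries the 5S ribosomal RNA with RPL11, was 12.91, 13.14 and 12.57 in combination cells and 13.61, 13.42 and 13.32 in control cells, a change of -0.58 ± 0.14 (adjusted p = 0.00261).

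The other members lower after 48 h of the combination were RPL30, RPS15A, RPL28, RPL38, RPL29 and RPL27, with changes from -0.51 to -0.32 and adjusted p values from 0.0011 to 0.043. RPL30 is known in yeast to bind its own transcript, RPL38 is known in mice for the translation of Hox mRNAs, and RPS15A and RPL27 are among the Diamond-Blackfan anaemia genes. Each of these 6 had a lower mean in the combination than in ATRA, atorvastatin or control cells, except RPL28, whose mean was lowest in atorvastatin cells (7.34, 7.19 and 7.23 in combination cells and 7.07, 7.27 and 7.16 in atorvastatin cells, which overlapped).

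RPL31, at the rim of the exit tunnel, was the 1 member that rose. It stood at 14.55, 14.69 and 14.67 in combination cells, against 13.98, 14.22 and 14.43 in control cells, without overlap. The change was 0.43 ± 0.14 (adjusted p = 0.0247), and it did not pass without experiment 1 (adjusted p = 0.199), without experiment 2 (adjusted p = 0.15), with only the 48 h arrays (adjusted p = 0.0934) or in the authors' log2 values, where it was 0.14. The plot of 6 genes by array shows these values beside RPL41, whose normalized signal is held at the top rank.

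**Figure D2:**
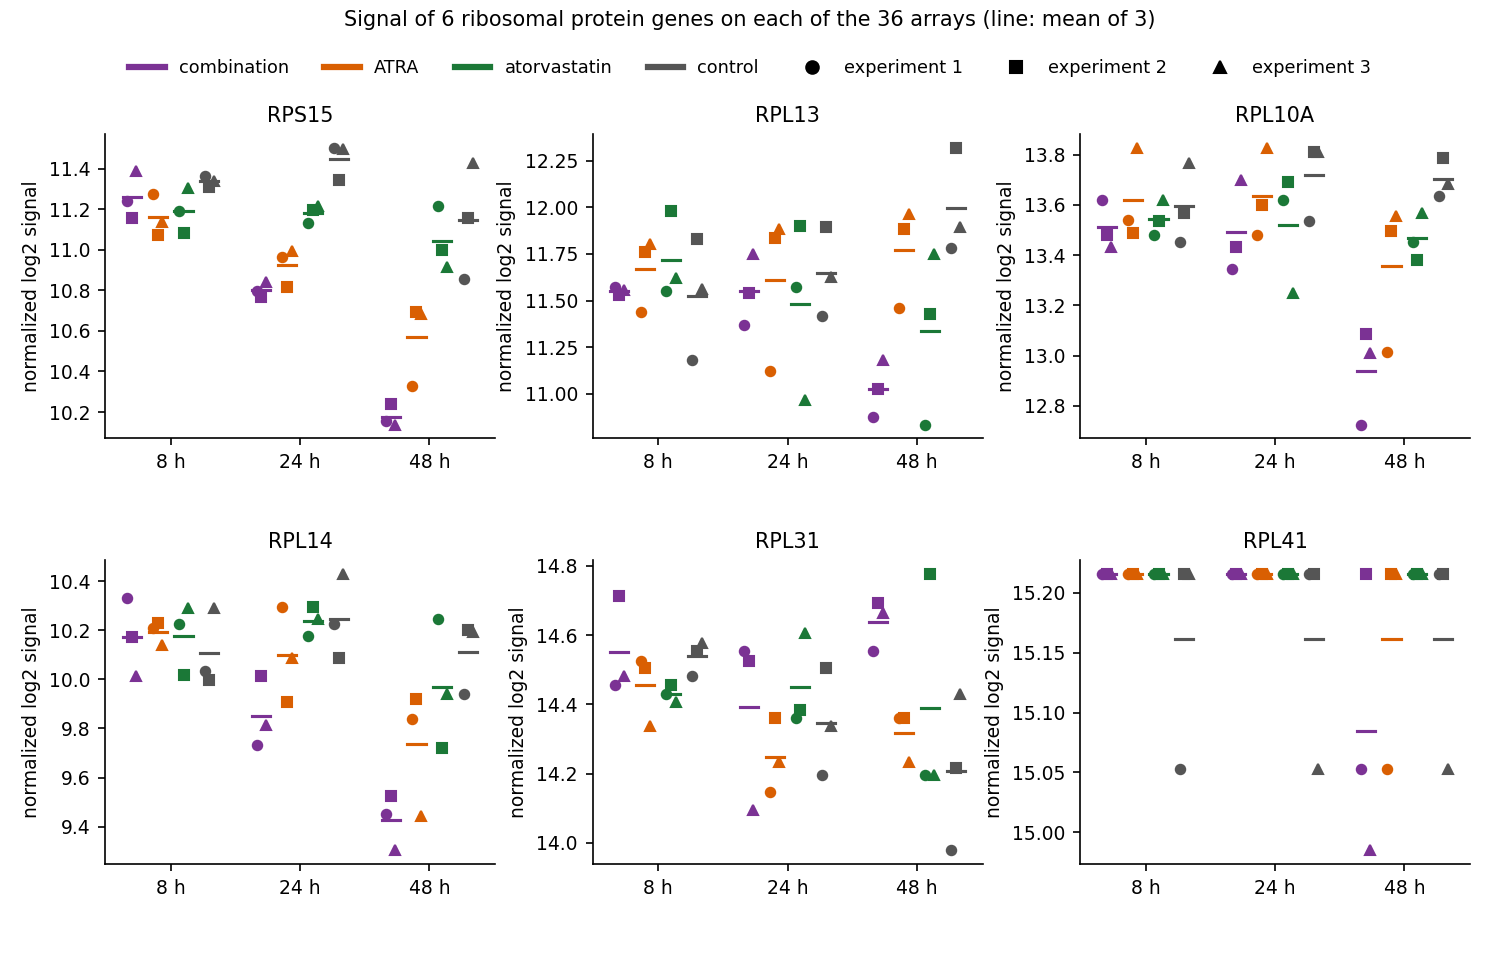
Normalized log2 signal (vertical axes, which do not start at 0) of RPS15, RPL13, RPL10A, RPL14, RPL31 and RPL41 on each of the 36 arrays, by time, with groups in colour, experiments by symbol and a line at each mean of 3. RPS15 lies lower in both arms with ATRA from 24 h on, and RPL41 sits at 15.22 on most arrays.

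The shift of the family depended on how arrays were scaled. With arrays scaled to a common median in place of quantile normalization, no member was lower and 2 were higher, RPL31 (0.61 ± 0.20) and RPS27L (0.55 ± 0.16), where 16.0% of all genes were higher. The median member change was then 0.05, against 0.10 over all genes, so relative to all genes it was -0.05 in place of -0.19. All of the 13 genes lower after quantile normalization stayed below 0 under median scaling, RPS15 at -0.56 (adjusted p = 0.0693) and RPL13 at -0.58 (adjusted p = 0.107), and none passed. In the authors' own log2 values 19 members were lower and none higher, beside 8.92% of all genes lower, with a median of -0.37. Of these 19, 11 were among the 13 (11 of 19 and 11 of 13), and RPS2 (-0.57 ± 0.16), RPL12, RPL18, RPL23A, RPL3, RPL7A, RPS16 and RPS25 were added.

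The same dependence appeared within experiments. After quantile normalization the median combination change at 48 h was -0.18, -0.15 and -0.25 in experiments 1, 2 and 3, with 56, 45 and 51 members below 0. With median scaling it was 0.20, 0.23 and -0.29, above 0 in 2 experiments and below 0 in the third. Over all genes the median was then 0.24, 0.16 and -0.03. In the authors' values the median member change was -0.60, -0.43 and -0.09. On the deposited signals, the median member was 102, 138 and 87.0 times its array's median in combination cells and 115, 134 and 113 times in ATRA cells, against 58.4, 96.8 and 64.3 times in atorvastatin cells and 66.4, 101 and 106 times in control cells. These ratios were higher in the arms with ATRA than in those without it in experiments 1 and 2, and in experiment 3 the combination array was below the control array. The part that these array-wide differences play in the change of the family was not tested.

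**Figure D3:**
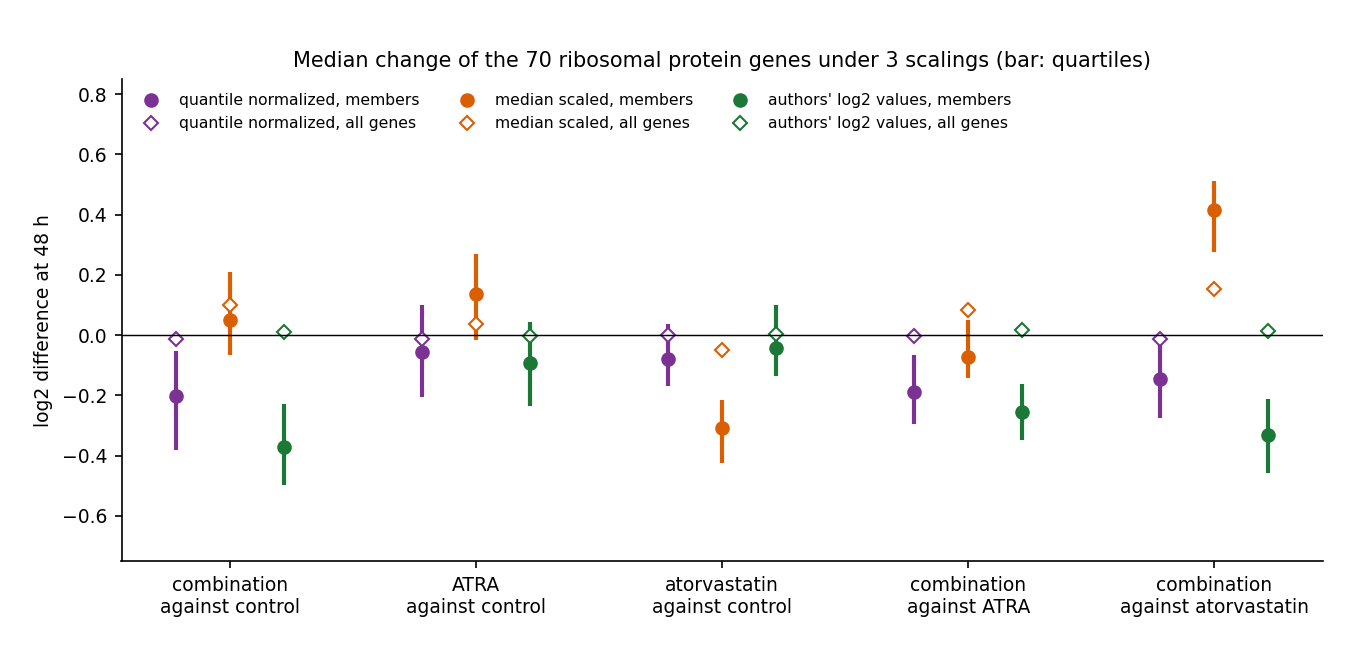
Median log2 difference at 48 h (filled circles, with bars for the quartiles) of the 70 genes in 5 comparisons under quantile normalization, median scaling and the authors' log2 values, beside the median of all genes (open diamonds). For the combination against control the circles lie at -0.20, 0.05 and -0.37, and for the combination against atorvastatin at -0.14, 0.41 and -0.33.

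With ATRA alone at 48 h, RPS15 was the only gene of the 70 that passed (0 higher, 1 lower), beside 8.02% of all genes in either direction and 3.97% lower, and 2 members passed with the experiment as a block. The median member change was -0.06, 40 of 70 changes were below 0, and with median scaling the median turned to 0.14. All 3 ATRA arrays lay below the control arrays for 9 members (12.3% of all genes) and above them for 4 (10.0%). With median scaling the counts were 0 below and 9 above, beside 7.39% and 11.6% of all genes. In the authors' values they were 3 below and 0 above, beside 11.1% and 10.3% of all genes. RPS20 and RPL9 had the largest positive values, 0.35 and 0.33, and did not pass.

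With atorvastatin alone no member passed at 48 h, beside 0.771% of all genes, and 5 had an unadjusted p under 0.05. With the experiment as a block 2 members passed. The median change was -0.08, and -0.31 with median scaling, also with no call. All 3 atorvastatin arrays lay below the control arrays for 7 members (5.87% of all genes) and above for 1 (6.47%). With median scaling the counts were 15 below and 0 above (7.6% and 3.75% of all genes). In the authors' values they were 1 each (5.35% and 6.66% of all genes). RPL13 (-0.66) and RPL28 (-0.56) were the lowest members apart from RPS6, and both missed the threshold (adjusted p = 0.179 and 0.116).

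RPS6, the small-subunit protein that is phosphorylated by the S6 kinases, had the largest nominal change of the family, -2.92 in atorvastatin at 48 h, and did not pass. It came from 1 array. The atorvastatin array of experiment 1 had a signal of 6.04, near background, where the other 35 arrays had 14.09 to 14.82. The deposited signal was 128.1 on that array and 15348.4 to 30874.6 on the others, and without it the change was -0.05. A fall of at least 4 log2 units below a gene's own median occurred for 31 pairs of gene and array in the whole table, and 25 of them were on this same array. RPS6 was the only member among them.

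Adding atorvastatin to ATRA lowered 5 members at 48 h relative to ATRA alone and raised none, beside 6.4% of all genes in either direction and 2.98% lower. They were RPL13 (-0.74 ± 0.22), RPL29 (-0.58 ± 0.13), RPS15A (-0.51 ± 0.14), RPS9 (-0.44 ± 0.13) and RPS15 (-0.39 ± 0.12), with adjusted p values from 0.00517 to 0.0457. RPL29 was 12.64, 12.77 and 12.73 in combination cells and 13.39, 13.20 and 13.28 in ATRA cells. RPS9, at the mRNA entry, was 12.10, 12.24 and 12.39 in combination cells and 12.72, 12.58 and 12.75 in ATRA cells. Neither gene overlapped between these arms. The calls were thin: leaving out experiment 1, 2 or 3 left 2, 0 and 1 members, and median scaling or the 48 h arrays alone left 0. With the experiment as a block 8 passed. The median member change was -0.19, 59 of 70 values were below 0, and the arrays did not overlap for 12 members lower (10.6% of all genes) and 1 higher (9.89%). With median scaling the median was -0.07, and 5 members were lower and 1 higher without overlap (4.6% and 17.6% of all genes). In the authors' values 23 were lower and 0 higher (8.71% and 12.5% of all genes).

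Adding ATRA to atorvastatin lowered 5 members of 70 relative to atorvastatin alone at 48 h and raised none. Of all genes, 14.8% were called in either direction and 7.68% were lower, so the share of members lower was near the background. The 5 were RPS15 (-0.87 ± 0.12), RPL14 (-0.54 ± 0.14), RPL10A (-0.53 ± 0.14), RPL39L (-0.46 ± 0.16) and RPL35A (-0.45 ± 0.13). RPL35A, a Diamond-Blackfan anaemia gene, was 13.77, 13.80 and 13.94 in combination cells and 14.71, 14.17 and 13.98 in atorvastatin cells. Its differences within experiments 1, 2 and 3 were -0.95, -0.37 and -0.04. The value of 14.71 came from the array on which RPS6 read near background. This comparison turned with the scaling: median scaling gave 16 members higher and none lower, beside 19.6% of all genes higher, and the authors' values gave 13 lower and none higher, beside 6.67% lower. RPL10A, RPL14, RPL35A and RPL39L changed sign under median scaling and RPS15 did not. With the experiment as a block 7 were lower and 1 higher.

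The interaction term asks whether the combination differed from the sum of the single effects. The interaction of ATRA and atorvastatin called 0 of 70 at 48 h (0.516% of all genes), with an unadjusted p under 0.05 for 5 and a lowest adjusted p of 0.321, for RPL11 (-0.54 ± 0.19). At 8 and 24 h it called 0 of 70 and 0.0% of all genes, and no member had an unadjusted p under 0.05. With 3 arrays a group the interaction has a wider SE than the single comparisons, so this does not show that the effects added.

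At 24 h the combination had lowered 2 members of 70, RPS15 and RPL39L (-0.53 ± 0.16, adjusted p = 0.039), and raised none. Of all genes, 6.02% were called in either direction and 2.52% were lower, so the share of members lower was near the background. ATRA had lowered RPS15 alone, beside 0.601% in either direction and 0.144% lower. Atorvastatin called 0 of 70 (0.0261% of all genes, 2 members at an unadjusted p under 0.05), the combination against ATRA 0 (0.0131%, 1 member) and the combination against atorvastatin 0 (1.48%, 4 members). RPL34, a large-subunit protein, had a combination value of -0.55 that did not pass. The 2 libraries with doubtful labels are both in this time, and without them the combination still lowered 2 and ATRA still lowered 1. With the experiment as a block the combination lowered 4.

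At 8 h no member passed in any comparison. All genes were called at 1.3% for the combination against control, 1.42% for ATRA and 0.00653% for atorvastatin, at 0.00653% for the combination against ATRA and at 1.16% for the combination against atorvastatin. An unadjusted p under 0.05 was reached by 1 member in the combination, 3 in ATRA and 0 in the other comparisons. Changes in the combination against control ran from -0.15 to 0.32.

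The comparison of 48 h with 8 h asks what changed within an arm. In combination cells, 10 members were lower at 48 h than at 8 h and none higher, beside 16.0% of all genes in either direction and 8.23% lower. RPS15 (-1.08 ± 0.12), RPL14 (-0.75 ± 0.14), RPL34 (-0.65 ± 0.18), RPS3 (-0.59 ± 0.18) and RPL10A (-0.57 ± 0.14) fell most, and RPL11, RPL5, RPS12, RPS15A and RPL30 were also called, with changes from -0.47 to -0.35. RPL5 and RPL11 form the pair that carries the 5S ribosomal RNA, and neither was called with median scaling. In control cells RPL11 was at -0.33 and RPL34 at -0.39, and RPL34 was at -0.41 in ATRA cells and -0.33 in atorvastatin cells, none of which passed. In ATRA cells RPS15 (-0.59 ± 0.12) and RPL14 (-0.46 ± 0.14) were lower. Of all genes, 5.91% were called in either direction there and 2.84% were lower, so the share of members lower was near the background. In atorvastatin cells no member passed (2.6% of all genes, 6 members at an unadjusted p under 0.05), and in control cells none did (3.59%, 9 members). With median scaling the combination arm kept 1 call, and without experiment 1, 2 or 3 it kept 4, 5 and 4.

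Calls after 48 h of the combination were counted by role. Of the ribosomal stalk, which recruits the elongation factors, 3 of 4 genes were measured (RPLP1, RPLP2 and RPL12) and none passed. Of the pair that carries the 5S ribosomal RNA, RPL5 was lower and RPL11 was at -0.13. Of 10 genes of the exit tunnel and its rim, RPL17 and RPL39L were lower and RPL31 higher, and RPL4 stood at 0.04. Of 7 genes of the decoding centre and mRNA channel, RPS15 was lower, and RPS2 (-0.32) and RPS3 (-0.41) missed the threshold. Of 20 Diamond-Blackfan anaemia genes 18 were measured, with RPL5, RPS15A and RPL27 lower and RPL31 higher. Large-subunit members gave 11 lower and 1 higher of 44 (median -0.24), and small-subunit members 2 lower and 0 higher of 26 (median -0.18), where 10.7% of all genes were lower and 9.67% higher. With median scaling each subunit had 1 member higher and 0 lower. With median scaling the medians of the stalk, tunnel, decoding, anaemia, large-subunit and small-subunit groups were all above 0, between 0.02 and 0.17. That of the 5S pair was -0.05. The median over all genes was then above 0 too, as given above. The decoding (0.02) and large-subunit (0.04) medians lay below it, and the small-subunit median (0.10) was near it. Those of the stalk (0.15), tunnel (0.17) and anaemia (0.13) groups lay above it.

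Of the 3 paralogs tested, 1 passed in the combination at 48 h, where 10.7% of all genes were lower and 9.67% higher. RPL39L fell, as given above. RPS27L, which is known to be induced by p53, was 11.75, 11.81 and 11.71 in combination cells and 11.69, 11.54 and 11.49 in control cells, a difference of 0.18 (adjusted p = 0.311) that passed under median scaling. RPS4X was at -0.07. The annotated start of RPS27L, shown above, has a C or T run of only 3 bases. Members with the TOP start had a median combination change of -0.23 at 48 h (43 genes, 5 lower and 1 higher). Members without it had -0.16 (16 genes, 4 lower), and the groups were not tested against each other. The share lower with the TOP start was near the 10.7% of all genes. With median scaling no member of either group was lower.

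RPL9, RPL7, RPL21 and RPS26 had the largest spread between replicates of a group after RPS6, with SDs within groups of 0.70, 0.59, 0.52 and 0.39, against a median of 0.17 for the members. They were picked out after their values were seen. RPL7 in experiment 2 lay between 12.43 and 12.87 on the 6 arrays with ATRA and between 11.85 and 12.10 on the 6 without, with no overlap. In experiment 3 the order was the other way, 10.81 to 12.08 with ATRA and 11.45 to 12.81 without, and the ranges overlapped. RPL9, a large-subunit protein near the factor-binding site, had means that differed in the same directions. Its mean with ATRA minus that without was 0.82 in experiment 2, -0.57 in experiment 3 and -0.19 in experiment 1. In the same order RPL21 gave 0.57, -0.51 and -0.07, and RPS26, a Diamond-Blackfan anaemia gene at the mRNA exit, gave 0.25, -0.24 and -0.22. These signs were not particular to the genes picked. RPS24 gave 0.23 in experiment 2 and -0.45 in experiment 3, and RPL32 gave 0.23 and -0.30. Other members, such as RPL7A (-0.29 and 0.18), went the other way. At 48 h the combination change of RPL9 was 1.30 in experiment 2 and -0.78 in experiment 3, and 0.16 over all 3. RPL7, RPL9, RPL21 and RPS26 have 61, 31, 137 and 59 pseudogenes under their names in RefSeq, and whether their probes read such copies was not tested.

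**Figure D4:**
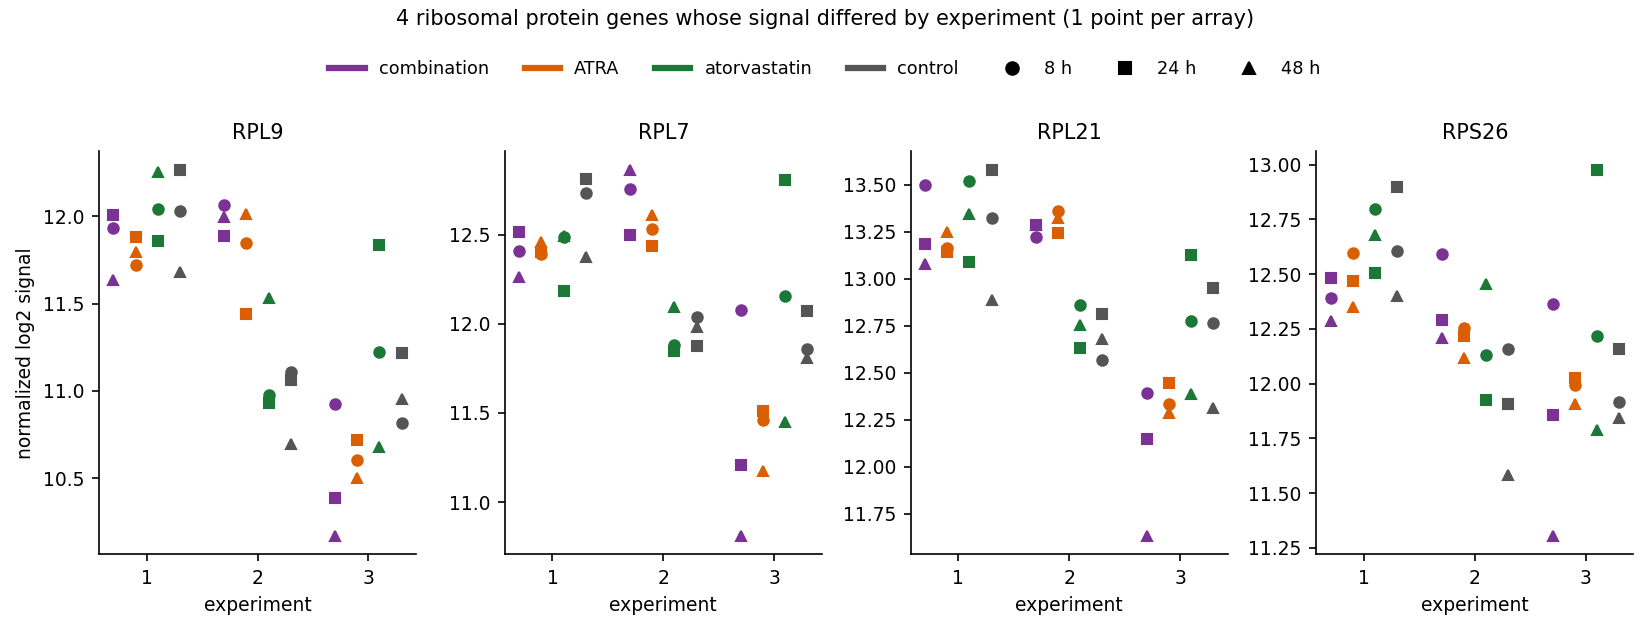
Normalized log2 signal (vertical axes, which do not start at 0) of RPL9, RPL7, RPL21 and RPS26 on each of the 36 arrays, set out by experiment, with groups in colour and times by symbol. In experiment 2 RPL7 and RPL21 are higher with ATRA than without it, and in experiment 3 the mean with ATRA is the lower one for all 4 genes.

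Where a gene had a second probe, both had a change of the same sign. For RPL13 the dimmer probe, averaging 8.04 over all arrays, gave -0.51 in the combination at 48 h, beside -0.97 for the brighter one at 11.57. For RPL34, RPL36 and RPL8 the dimmer probes gave -0.14, -0.21 and -0.35, and the brighter ones -0.37, -0.29 and -0.21. The mean over probes in place of the brightest left the counts in the combination at 13 lower and 1 higher.

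Some proteins of the ribosome carry other symbols. FAU, which yields RPS30, was at -0.08, RPL36AL at -0.29 and RPL26L1 at 0.05 in the combination at 48 h, and none passed. RPL7L1, an assembly factor related to RPL7, was at -0.69 ± 0.25 (adjusted p = 0.0497). It did not pass with median scaling or in the authors' log2 values. These are 4 of 9 listed genes, and the others were not analysed here.

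The genes that make ribosomal RNA and assemble subunits form a list of their own. After 48 h of the combination 17 of 22 measured genes of that list were lower and none higher, with a median of -0.86. Of all genes tested, 10.7% were lower and 9.67% higher. POLR1B, a subunit of RNA polymerase I, NOP56, of the box C/D snoRNP, and BOP1, an assembly factor of the large subunit, changed by -1.33 ± 0.13, -1.33 ± 0.17 and -1.22 ± 0.20. With median scaling 3 of the 22 were lower and the median was -0.47, below 0 as well. MYC was at -2.51 ± 0.18 after quantile normalization and at -2.14 with median scaling. NPM1, a nucleolar chaperone, was at -1.13 ± 0.19 and headed the other TOP mRNAs, of which 9 of 19 were lower and none higher (median -0.39). With median scaling 1 of the 19 was lower and 1 higher, where 16.0% of all genes were higher, and the median was -0.08.

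Of 36 initiation factors and regulators of initiation 11 were lower and none higher (median -0.34). EIF4B (-0.92 ± 0.18), the regulator EIF4EBP1 (-0.86 ± 0.22) and EIF3J (-0.71 ± 0.16) were lowest. Of 11 elongation and release factors and regulators of elongation 5 were lower (median -0.42), among them GSPT1, the regulator EEF2K and EEF1B2. With median scaling the initiation list had a median of 0.01 and 1 higher, and the elongation list -0.06 and 2 higher. The mitochondrial ribosomal proteins gave 27 lower and 2 higher of 76 (median -0.24). With median scaling 3 were lower and 4 higher, and the median was 0.15. Beside the counts of these lists, 10.7% of all genes were lower and 9.67% higher, and with median scaling 16.0% were higher. The median over all genes was above 0 with that scaling, as given above. The difference between these lists and the cytosolic ribosomal proteins was not tested.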

How the data were processed

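Total RNA of 36 NB4 cultures was hybridized to Illumina Sentrix Human-6 arrays. Per the labels, BeadStudio 1.3.1.5 gave a mean signal for each probe, with no background taken off; the deposited per-array values are intensity on a linear scale. The series table holds log2 values as the authors deposited them, with their normalization not given in the sources used here. Each of its 36 columns matched its own array best, and it served only as an alternative.

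Signals of the 47293 probes went through normexp without control probes (offset 50) and quantile normalization (limma 3.58.1, R 4.3.3). A probe stayed if it exceeded the array median on 3 or more arrays (41648 probes). The platform annotation names 1 gene for 18468 probes and no gene for 28825, and each gene is represented by its brightest probe. limma fitted 12 group means (24 residual degrees of freedom), and 22 contrasts were tested two-sided over 15308 genes. Summaries used Python 3.11.15, and the fit was tested on simulated data. There, 90.0% of members changed by 1 log2 unit and 33.3% of those changed by 0.5 were called. Of 142 calls, 11 were false. A small change that did not pass may therefore have been missed.

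Groups come from the sample titles, and experiments from the title numbers in runs of 12. As a check of this pairing, arrays of 1 experiment had deviations from their group means that correlated at a mean r of 0.126 (from -0.527 to 0.44), against -0.063 between experiments, and 29 of 36 arrays were closest to their own experiment. Arrays of a group correlated at 0.965 to 0.993, with 0 identical pairs. The number of arrays limits the precision.

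The members, role groups and lists were chosen with earlier results of these data known. Up to 5 rises and 5 falls a contrast, RPL4, RPS2, RPL41, the paralogs, the role groups and second probes were to be named. The remaining called members, RPS6 and the genes that differ by experiment were named after their values were seen. Results were recomputed without background correction, with median scaling, on the authors' values, without the dim filter, with the mean over probes, within 1 time, blocked by experiment, leaving out each experiment, and leaving out the 2 doubted libraries.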

Additional observations from a re-analysis of the deposited data

How the results depend on the processing

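Counts of called members (22 comparisons) are main values against alternatives. Median scaling gave 0 for ATRA against control at 24 and 48 h (main 1 and 1), 0 and 2 for the combination against control at 24 and 48 h (main 2 and 14), 4 and 16 against atorvastatin (main 0 and 5), 0 against ATRA at 48 h (main 5), and 0, 1 and 1 for 48 h against 8 h in ATRA, atorvastatin and combination cells (main 2, 0 and 10). It turned RPL10A (0.0494), RPL14 (0.0536), RPL35A (0.163) and RPL39L (0.0723) positive in the combination against atorvastatin at 48 h. The authors' values gave 1 and 13 for the combination against atorvastatin at 24 and 48 h, 2 for ATRA at 48 h, and 2, 1 and 6 over time in control, ATRA and combination cells. With only the arrays of 1 time the counts were 0 (ATRA, 24 h), 1 (combination, 24 h), 0 (against ATRA, 48 h) and 3 (against atorvastatin, 48 h). With the experiment as a block they were 4 (combination, 24 h), 2 (ATRA, 48 h), 2 (atorvastatin, 48 h), 8 (against ATRA), 8 (against atorvastatin) and 1 (control over time), and 18 lower for the combination at 48 h; all 40 calls of single genes passed with the block too. Leaving out each experiment gave 0 to 1 for ATRA at 24 h, the combination at 24 h, ATRA at 48 h, and control and ATRA over time, 8 to 13 for the combination at 48 h, 0 to 2 against ATRA, 2 to 4 against atorvastatin and 4 to 5 for the combination over time. No background correction, no dim filter and leaving out the 2 doubted libraries kept all 40 single-gene calls; the mean over probes lost 1, the authors' values 12, the arrays of 1 time 12 of 28, leaving out experiment 1, 2 or 3 lost 20, 23 and 23, and median scaling 34 (and reversed 4). For each of these changes the cause was not tested. Signals near the top rank or near background limit what can be seen for RPL41, RPL10 and their like.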
